A study of Mus musculus with 10 samples.

Results

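The genes described are 57 developmental transcription factor genes that are classical targets of the Polycomb complex PRC2, taken from the 35976 genes of the count table by exact match of the gene name. They hold 19 Hox genes, 5 Pax genes, 5 T-box genes, 5 forkhead genes and 23 genes of other families, among them the Lhx, sine oculis-related (Six2 and Six3), Nkx, Sox, Irx, Dlx, Msx, Meis, Gbx and Isl genes. The rule that selects them uses names and no measured value, but the list was made with earlier results of these data known. RNA with a poly(A) tail was sequenced from mouse morulae, the preimplantation stage at which the cells compact. The names of the pooled libraries give the strain combination BDF1 x PWK, and those of the single-embryo libraries name no strain. The knockouts are labelled as such for Jarid2, a cofactor of PRC2, and no source used here gives the deleted exons, the allele or how the knockouts were made. The single-embryo set held 3 Jarid2 knockout female embryos (replicates 1, 3 and 4) and 3 wild-type female embryos (replicates 1 to 3). A knockout embryo numbered 2 was not analysed here. Pools of about 20 embryos gave 2 knockout and 2 control libraries, and the labels call the second group control and give no sex for these embryos. Whether the pools stem from different litters is not stated. Their p-values therefore measure only how far these libraries spread, which may be technical.

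PRC2 places methyl groups on lysine 27 of histone H3, and genes carrying the trimethylated form are usually silent. In mouse embryonic stem cells its best known targets are genes of transcription factors that pattern the later embryo, such as the Hox clusters and the Pax, T-box, forkhead and LIM homeobox genes, whose promoters mostly lie in stretches rich in CG dinucleotides. Jarid2 binds PRC2, helps to bring it to such targets and stimulates its activity.

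Promoter sequences of 5 of the genes are shown because CG-rich promoters are the feature these genes are known for, and because they span the range of levels measured here. Each runs from 250 bases before to 50 bases after the gene's start in RefSeq (GRCm38.p6), 5′ to 3′ on the gene's strand, with CG dinucleotides in capitals. Tbx20 (chr9:24774254-24774553, minus strand) had the highest level among the genes with a sequence in the table, and Six3 (chr17:85620584-85620883, plus strand) the lowest mean CPM among the genes with a sequence that averaged at least 1 CPM in a group. Foxa2 (chr2:148046920-148047219, minus strand), Msx1 (chr5:37824536-37824835, minus strand) and Nkx6-1 (chr5:101664662-101664961, minus strand) had no read in any library.
Tbx20: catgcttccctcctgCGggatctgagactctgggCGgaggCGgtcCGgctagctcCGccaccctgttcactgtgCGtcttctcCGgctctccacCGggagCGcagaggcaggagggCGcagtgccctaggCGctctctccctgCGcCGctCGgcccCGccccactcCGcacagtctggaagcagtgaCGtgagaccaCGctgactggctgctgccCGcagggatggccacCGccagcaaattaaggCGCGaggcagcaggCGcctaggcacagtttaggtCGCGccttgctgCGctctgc
Six3: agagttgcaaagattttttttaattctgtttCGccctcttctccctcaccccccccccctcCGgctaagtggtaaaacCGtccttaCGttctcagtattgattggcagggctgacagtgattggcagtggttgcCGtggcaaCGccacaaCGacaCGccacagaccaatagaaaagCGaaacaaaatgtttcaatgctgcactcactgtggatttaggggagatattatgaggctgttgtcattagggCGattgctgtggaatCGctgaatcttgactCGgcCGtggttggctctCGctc
Foxa2: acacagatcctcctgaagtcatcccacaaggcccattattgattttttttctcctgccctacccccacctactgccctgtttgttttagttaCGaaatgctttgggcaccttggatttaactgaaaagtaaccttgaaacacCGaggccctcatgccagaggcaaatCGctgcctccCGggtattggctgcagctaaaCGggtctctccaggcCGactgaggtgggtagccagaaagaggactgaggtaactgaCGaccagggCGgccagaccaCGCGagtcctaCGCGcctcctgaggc
Msx1: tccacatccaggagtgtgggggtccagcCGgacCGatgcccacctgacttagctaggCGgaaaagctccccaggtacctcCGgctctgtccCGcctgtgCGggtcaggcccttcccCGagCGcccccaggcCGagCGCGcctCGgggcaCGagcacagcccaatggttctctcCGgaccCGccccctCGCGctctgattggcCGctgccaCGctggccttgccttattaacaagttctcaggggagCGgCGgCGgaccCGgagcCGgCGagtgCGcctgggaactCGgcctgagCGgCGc
Nkx6-1: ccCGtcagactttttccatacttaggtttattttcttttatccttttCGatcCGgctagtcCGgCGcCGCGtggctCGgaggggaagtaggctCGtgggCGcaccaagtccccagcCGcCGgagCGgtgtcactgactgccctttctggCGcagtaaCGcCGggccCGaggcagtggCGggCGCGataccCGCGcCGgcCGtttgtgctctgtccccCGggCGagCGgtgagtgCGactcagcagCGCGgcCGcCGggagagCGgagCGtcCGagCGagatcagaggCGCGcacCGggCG
These 300 bases hold 26 CG dinucleotides in Tbx20, 14 in Six3, 12 in Foxa2, 29 in Msx1 and 40 in Nkx6-1. The genes shown without a read thus ran from 12 to 40, on both sides of Tbx20 and Six3. With 5 promoters chosen by their level, a relation of CG number to reads cannot be judged. A promoter sequence was found for 41 of the 57 genes. Their median was 20 CG dinucleotides, with an observed over expected ratio of 0.747, against 7 and 0.389 over all 27025 RefSeq promoters of that length. The ratio was at least 0.6 in 28 of the 41 (68.3%) and in 36.5% of all promoters. The letters GGGCGG occurred on either strand in 21 of the 41 (51.2%) and in 35.9% of all promoters. Among the 14 with a mean of at least 1 CPM in a group the median ratio was 0.768, and among the other 27 it was 0.679.

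The libraries held 18015186, 18696312 and 18071881 reads in knockout embryos 1, 3 and 4, and 14830332 to 17534188 in wild-type embryos. Knockout pools held 49861963 and 41003216 reads, and control pools 42906533 and 47458704. A gene at 0 could still have had up to 3 reads, which is 0.16 to 0.202 CPM (reads scaled to a common library total) in a single embryo and 0.0602 to 0.0732 CPM in a pool. Among genes with 1 to 50 reads, the count was an even number for 64.1% to 66.6% of genes in the pools and for 43.8% to 46.1% in the single embryos. How the even counts arose was not tested. Jarid2 itself had 156, 319 and 61.3 CPM in knockout embryos, against 580, 686 and 776 CPM in wild-type embryos (log2 change -1.92, SE 0.43, edgeR adjusted p = 0.0342). It had 181 and 158 CPM in knockout pools, against 442 and 496 CPM in control pools (-1.55, SE 0.18, edgeR adjusted p = 0.0794). All knockout values lay below all control values of their set, and the call in single embryos was lost in 4 of the 6 fits that leave out an embryo, all but those without knockout embryo 3 or wild-type embryo 2 (adjusted p up to 0.127).

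Most of the 57 genes were close to silent, and what reads they had came mainly from a pair of T-box genes. No read was found in any library for Hoxb3, Tbx5 (a heart and forelimb factor), Nkx6-1 (a pancreas and spinal cord factor), Foxa2 (an endoderm pioneer factor) and Msx1 (a limb and craniofacial factor). A further 8 genes had reads but never 3 in a library, namely Hoxa2, Hoxa3, Hoxb5, Pax2, T, Lhx5, Sox1 and Irx5. The other 44 genes (77.2%) had at least 3 reads in at least 1 library, where 64.2% of all genes did. Of these, 10 had at least 3 reads in all 10 libraries (Hoxb13, Hoxd3, Hoxd8, Hoxd9, Tbx3, Tbx20, Foxc1, Foxd3, Msx2 and Gbx2). At the level of 1 CPM, 25 of the 57 genes reached it in some library and 19 as the mean of a group. The number of these genes with at least 3 reads was 18, 28 and 27 in knockout embryos 1, 3 and 4, against 23, 24 and 21 in wild-type embryos 1 to 3. In pools it was 34 and 35 in knockouts, against 27 and 30 in controls. The whole table went the same way, with 19127 and 19258 genes detected in knockout pools, against 18263 and 18543 in control pools. Knockout embryo 1 had the fewest of the 57 genes, although 15806 genes of the whole table were detected there, within the 15024 to 16606 of the other single embryos.

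**Figure D1:**
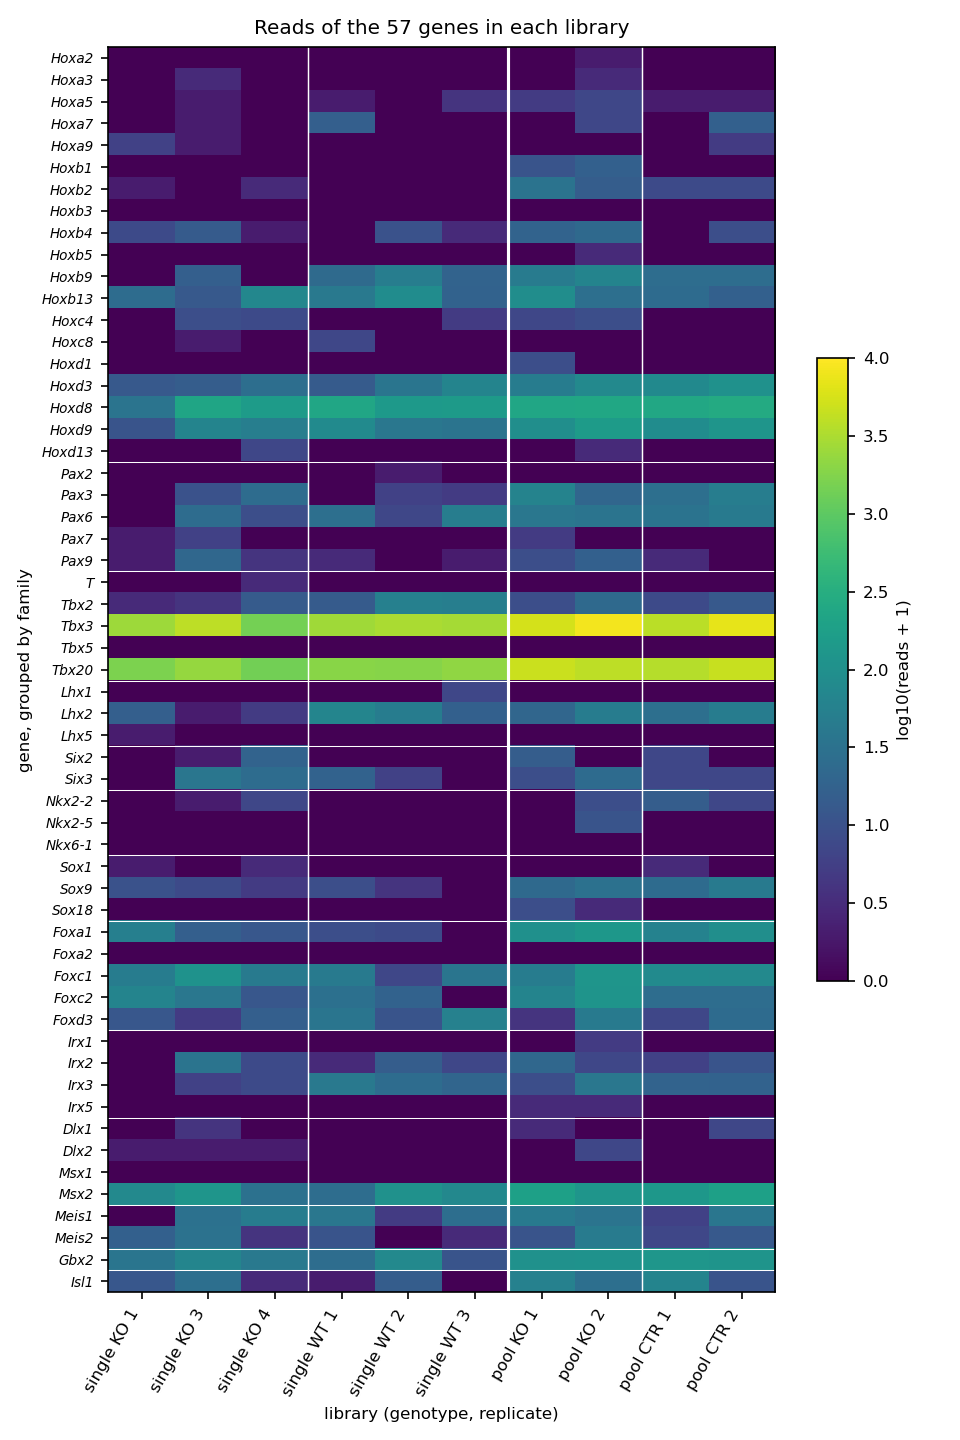
Reads of each of the 57 genes (vertical axis, grouped by family) in each of the 10 libraries (horizontal axis, knockout left of control within single embryos and within pools), as log10(reads + 1) in colour. Tbx3 and Tbx20 are the only bright bands, Hoxd8 follows, and 5 genes are dark throughout.

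None of the 57 genes was called as changed in the knockouts. In single embryos 21 of them passed the filter on low counts (36.8%, against 38.4% of all genes) and 0 passed 5%, where 4.37% of all genes tested did (edgeR). Limma-voom called 0 of the 21 (5.47% of all genes). DESeq2 gave an adjusted p for 4 of them (Tbx3, Tbx20, Hoxd8 and Msx2) and called 0 of these, where it called 18.4% of all genes with one. At an unadjusted p under 0.05 by edgeR, 3 of the 21 were lower in knockouts (Tbx2, Lhx2 and Irx3), where 12.2% of all genes were, and 0 were higher, where 10.4% were. In pools 24 of the 57 passed the filter (42.1%, against 45.2% of all genes) and 0 passed 5% by edgeR, which called 0.0% of all genes. Limma-voom called 0 of the 24 (0.00615% of all genes), and DESeq2 called 0 of the 19 to which it gave an adjusted p (0.487% of all genes with one). At an unadjusted p under 0.05, 1 of the 24 was higher in knockout pools (Foxc2; 4.26% of all genes) and 0 were lower (2.34%). The test of whether the knockout effect differed between the sets passed for 0 of 24 genes (0.0063% of all genes; edgeR), and limma-voom called 0 of them too. DESeq2 gave an adjusted p for the difference only to Tbx3 and Tbx20, and called neither (5.77% of all genes with one). The median log2 change of the genes tested was -0.26 in single embryos and 0.25 in pools, against -0.03 and 0.01 over all genes tested. These counts cover the genes that had reads enough to be tested, and a change of a gene near 0, small or large, could go uncalled at this depth. Irx3, for example, had a log2 change of -2.94 in single embryos (SE 1.33) and was not called. Jarid2 itself, at -1.55 in pools, was not called there by edgeR. In bulk samples, fewer cells of a type and less RNA per cell cannot be told apart.

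Tbx3 and Tbx20 together made up 81.7% to 90.8% of the summed CPM of the 57 genes in every library. Tbx3 (chromosome 5, 119670669 to 119684724, mm10) encodes a T-box repressor that supports self-renewal of mouse embryonic stem cells. It had 147, 214 and 80.5 CPM in knockout embryos 1, 3 and 4, against 184, 176 and 165 CPM in wild-type embryos. In pools it had 111 and 206 CPM in knockouts, against 90.6 and 152 CPM in controls. The wild-type embryos lay close together, and the knockout embryos spread on both sides of them. The log2 change was -0.22 in single embryos (SE 0.28, 95% interval -0.85 to 0.40) and 0.29 in pools (SE 0.28, -0.33 to 0.90), and neither passed (edgeR adjusted p = 0.702 and 0.901). Tbx20 (chromosome 9, 24718138 to 24774303) encodes a T-box factor of the developing heart. It had 91.7, 124 and 78.0 CPM in knockout embryos, against 129, 107 and 124 CPM in wild-type embryos. The levels in pools were 94.4 and 96.7 CPM in knockouts, against 82.3 and 98.4 CPM in controls. Its groups overlapped in both sets, with log2 changes of -0.26 (SE 0.22, interval -0.75 to 0.22) and -0.01 (SE 0.17, interval -0.38 to 0.37; edgeR adjusted p = 0.533 and 0.998). The direction of the Tbx20 value in pools, and of that of Tbx3 in both sets, turned with other settings. Per kilobase of exon, Tbx3 averaged 23.0 RPKM and Tbx20 8.55 RPKM over the 10 libraries, above all others of the 57. Over all 57 genes the summed level was 262, 389 and 194 CPM in knockout embryos, against 367, 326 and 326 CPM in wild-type embryos, and 234 and 343 CPM in knockout pools, against 199 and 280 CPM in control pools. Without Tbx3 and Tbx20 it was 24, 50.7 and 35.6 CPM in knockout embryos, against 54.2, 42.8 and 37.1 CPM in wild-type embryos, and 28.7 and 40.3 CPM in knockout pools, against 26.5 and 29.4 CPM in control pools. These sums overlapped between the genotypes within each set.

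**Figure D2:**
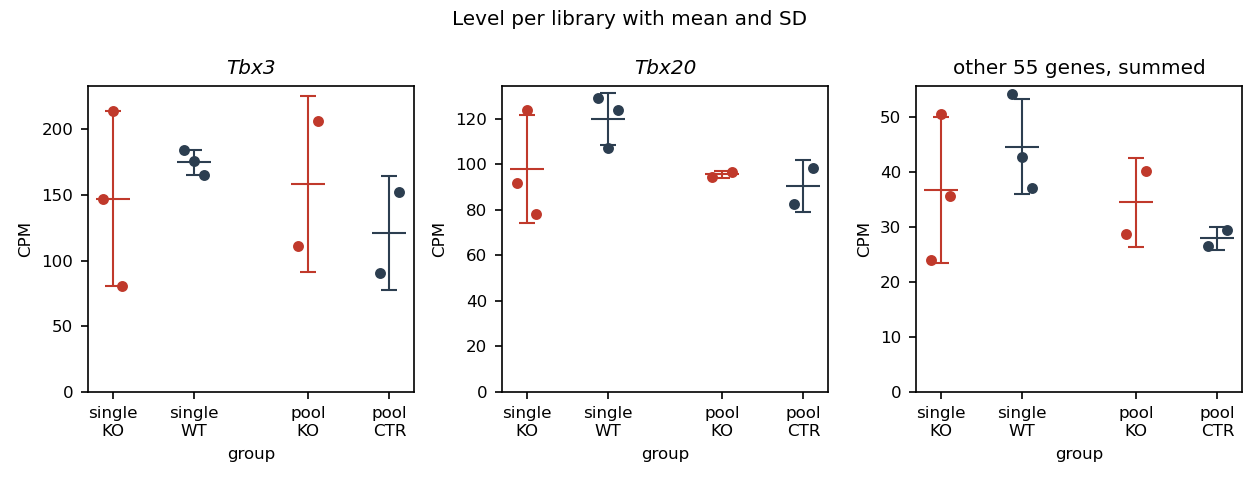
Level in CPM of Tbx3, of Tbx20 and of the other 55 genes summed, by group. Points are libraries, and the bar and whiskers are the mean and SD of each group (3 knockout and 3 wild-type embryos, 2 knockout and 2 control pools). The genotypes overlap in every panel, and the knockout embryos spread more widely than the wild-type ones for Tbx3.

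Tbx2, Lhx2, Irx3 and Hoxb9 were the genes whose knockout embryos all lay below the wild-type embryos, 4 of 21 genes (19%) where 15.3% of all genes tested did so. Tbx2 (chromosome 11, 85832551 to 85841948), a T-box repressor of heart and limb development, had 0.111, 0.160 and 0.719 CPM in knockout embryos, against 0.877, 3.08 and 2.93 CPM in wild-type embryos. Knockout embryo 4 and wild-type embryo 1 had 13 reads each, and their CPM differed only through the library totals. In pools Tbx2 had 0.160 and 0.537 CPM in knockouts, against 0.163 and 0.253 CPM in controls. All 4 pools, of either genotype, thus lay below every wild-type embryo and within the range of the knockout embryos. The log2 change was -2.72 in single embryos (SE 1.17, 95% interval -5.29 to -0.15; edgeR adjusted p = 0.196) and 0.61 in pools (SE 0.94; adjusted p = 0.946).

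Lhx2 (chromosome 2, 38339281 to 38369733), a LIM homeobox gene of the eye and forebrain, had 0.833, 0.0535 and 0.221 CPM in knockout embryos, against 4.45, 2.62 and 0.920 CPM in wild-type embryos. The margin was narrow, with 15 reads in knockout embryo 1 and 16 reads in wild-type embryo 3. The levels in pools were 0.401 and 1.12 CPM in knockouts, against 0.653 and 0.969 CPM in controls, and the pools overlapped. The log2 change was -2.72 in single embryos (SE 1.22, interval -5.40 to -0.03; edgeR adjusted p = 0.216) and -0.21 in pools (SE 0.65; adjusted p = 0.980). Irx3 (chromosome 8, 91798525 to 91802067), an Iroquois homeobox gene of neural patterning, had 0, 0.267 and 0.387 CPM in knockout embryos, against 2.76, 1.43 and 1.09 CPM in wild-type embryos. It had 0.160 and 0.927 CPM in knockout pools, against 0.420 and 0.358 CPM in control pools, all below every wild-type embryo. The log2 changes were -2.94 (SE 1.33, interval -5.87 to -0.02; edgeR adjusted p = 0.219) and 0.34 (SE 0.87; adjusted p = 0.973). The antisense gene Irx3os overlaps 4.49% of the exon bases of Irx3, and it had 0 reads in each knockout embryo and 12, 2 and 0 reads in wild-type embryos. No source used here says whether counting used strand, so reads of the overlap cannot be told apart. Over the alternatives in single embryos other than DESeq2, which gave none, the adjusted p ran from 0.125 to 0.505 for Tbx2, from 0.118 to 0.561 for Lhx2 and from 0.148 to 0.541 for Irx3.

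Some markers of another lineage, the primitive endoderm, were also lower in the single knockout embryos. The summed level of 8 primitive endoderm markers was 335, 628 and 297 CPM in knockout embryos, against 1020, 663 and 767 CPM in wild-type embryos, with 2 of the 8 lower past 5%, the matrix protein genes Sparc (log2 change -1.54, SE 0.36, edgeR adjusted p = 0.0372) and Col4a1 (-1.63, SE 0.35, edgeR adjusted p = 0.0292). Over all genes tested in single embryos, 4.37% passed in either direction. The most abundant of the 8 markers were Gata6 and Lamb1. Lamb1 and Pdgfra did not pass, with log2 changes of -1.79 and -1.76 in single embryos (edgeR adjusted p = 0.058 and 0.22). In pools the sum was 367 and 474 CPM in knockouts, against 304 and 387 CPM in controls. The lineage factors on this list did not pass 5% in single embryos (edgeR). Their log2 changes there were -0.46 for Gata6, -2.45 for Gata4, -0.31 for Sox17 and 1.54 for Sox7. The 11 trophectoderm markers summed to 2600, 3760 and 2910 CPM in knockout embryos, against 4340, 4050 and 4070 CPM in wild-type embryos, with the endocytic receptor gene Lrp2 lower past 5% (-1.24, SE 0.18, edgeR adjusted p = 0.0120) and the other 9 tested not past it. Lrp2 averaged 707 CPM in knockout embryos and 1710 CPM in wild-type embryos, a difference nearly as large as that of the sum. Dab2, an endocytic adaptor, averaged 660 CPM in knockout embryos and 446 CPM in wild-type embryos (log2 change 0.63, edgeR adjusted p = 0.111). Of the trophectoderm factors, Cdx2, Tfap2c and Gata3 had log2 changes of 0.23, 0.15 and -0.07. Those of Eomes, Tfap2a and Gata2 were -0.37, -0.96 and -1.89, and that of Krt8 was -0.15. The calls of Sparc and Col4a1 were each lost in 4 of the 6 fits without an embryo, those without wild-type embryo 1 or 3 or knockout embryo 1 or 4, and that of Lrp2 in 3, those without wild-type embryo 1 or 3 or knockout embryo 4. The part of these lineages in the values of Tbx2, Lhx2, Irx3 and Hoxb9 was not tested. The 12 inner cell mass and pluripotency markers, led by Dppa3 and Tfcp2l1, summed to 3490 to 4410 CPM in knockout embryos and 3370 to 3780 CPM in wild-type embryos, with 0 past 5% (edgeR). Markers of somatic cells outside the embryo were low. The cumulus and granulosa list, led by Star and Foxl2, summed to 3.15 to 5.40 CPM in knockout embryos and 5.06 to 9.91 CPM in wild-type embryos, with Fshr, Has2, Ptx3 and Inhba at 0. The fibroblast list, led by Thy1 and Col1a1, reached 1.55 CPM, with Lum and Dcn at 0. The blood list, led by Hba-a1 and Alas2, reached 1.65 CPM, with Hbb-bs, Hbb-bt and Ptprc at 0. The oocyte list, led by Zp3 and Nlrp14, summed to 37.3 to 98.5 CPM in knockout embryos and 48.1 to 165 CPM in wild-type embryos.

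Among the 19 Hox genes, Hoxd8 and Hoxd9, neighbours in the Hoxd cluster, had the highest mean levels per kilobase. Hox genes encode homeodomain factors that set position along the body axis, and they lie in 4 clusters. Of the 19, 5 averaged at least 0.2 RPKM over the 10 libraries, namely Hoxb9, Hoxb13, Hoxd3, Hoxd8 and Hoxd9. The highest mean among the 5 Hoxa genes described was 0.0538 RPKM, that of Hoxa7, and between Hoxc4 and Hoxc8 it was 0.0530 RPKM, that of Hoxc4. Hoxd8 (chromosome 2, 74704615 to 74707933) averaged 2.79 RPKM and Hoxd9 1.24 RPKM. Hoxd8 had 1.83, 12.1 and 8.52 CPM in knockout embryos, against 15.6, 7.87 and 8.74 CPM in wild-type embryos. In pools it had 4.65 and 5.85 CPM in knockouts, against 5.71 and 5.75 CPM in controls. Knockout embryo 1 was the lowest of the 10 libraries and the other knockout values lay near the controls (log2 changes -0.51, SE 0.61, and -0.22, SE 0.27; edgeR adjusted p = 0.677 and 0.927). Its neighbour Hoxd9 had 0.555, 3.32 and 2.77 CPM in knockout embryos, against 5.53, 2.11 and 1.96 CPM in wild-type embryos. It had 1.89 and 3.80 CPM in knockout pools, against 2.0 and 2.57 CPM in control pools. Knockout embryo 1 was again the lowest, and the groups overlapped in both sets (-0.51, SE 0.86, and 0.21, SE 0.40; edgeR adjusted p = 0.777 and 0.961). Hoxd3 had 0.666, 0.749 and 1.49 CPM in knockout embryos, against 0.877, 2.0 and 3.62 CPM in wild-type embryos. It had 0.943 and 1.85 CPM in knockout pools, against 1.84 and 2.21 CPM in control pools. Its log2 changes were -1.12 (SE 0.98) and -0.64 (SE 0.44), with overlap in both sets (edgeR adjusted p = 0.549 and 0.859). Hoxd3 shares 9.26% of its exon bases with Hoxd4 and 8.28% with its antisense gene Hoxd3os1, and 53.1% with Gm28230, a gene model on the same strand that was not analysed here, so its values are uncertain.

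Hoxb9, a gene of the thoracic Hox region, was the gene whose groups did not overlap in either set and pointed in opposite directions, 1 of 20 genes tested in both sets (5.0%), where 2.52% of all genes were likewise lower in knockout embryos and higher in knockout pools. It had 0, 0.802 and 0 CPM in knockout embryos, against 1.55, 2.79 and 1.04 CPM in wild-type embryos. The margin was narrow, with 15 reads in knockout embryo 3 and 18 reads in wild-type embryo 3. The levels in pools were 0.902 and 1.51 CPM in knockouts, against 0.606 and 0.548 CPM in controls. The log2 changes were -2.74 (SE 1.56, edgeR adjusted p = 0.328) and 0.96 (SE 0.56, edgeR adjusted p = 0.826), and the difference between them did not pass (-3.66, SE 2.02, edgeR adjusted p = 0.428). Without knockout embryo 3, which held all 15 reads of the knockout embryos, the embryo value was -7.90 and the difference -9.55, fitted values that depend on the prior count. Hoxb13, the most posterior Hoxb gene, had 1.39, 0.642 and 3.82 CPM in knockout embryos, against 2.7, 4.90 and 0.978 CPM in wild-type embryos. It had 1.85 and 0.683 CPM in knockout pools, against 0.559 and 0.337 CPM in control pools. The embryos overlapped and the pools did not (log2 -0.47, SE 0.93, and 1.43, SE 0.68; edgeR adjusted p = 0.818 and 0.762). The other 14 Hox genes stayed at or below 1.01 CPM in every library, and the highest value was that of Hoxa7 in wild-type embryo 1, where it had 15 reads. Hoxb2 had 0.642 and 0.341 CPM in knockout pools, against 0.163 and 0.147 CPM in control pools, and 27.3% of its exon bases overlap Hoxb3os. Hoxb4 had 0.361 and 0.537 CPM in knockout pools, against 0 and 0.169 CPM in control pools. Neither passed (edgeR adjusted p = 0.822 and 0.795), and both had too few reads in single embryos to be tested.

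**Figure D3:**
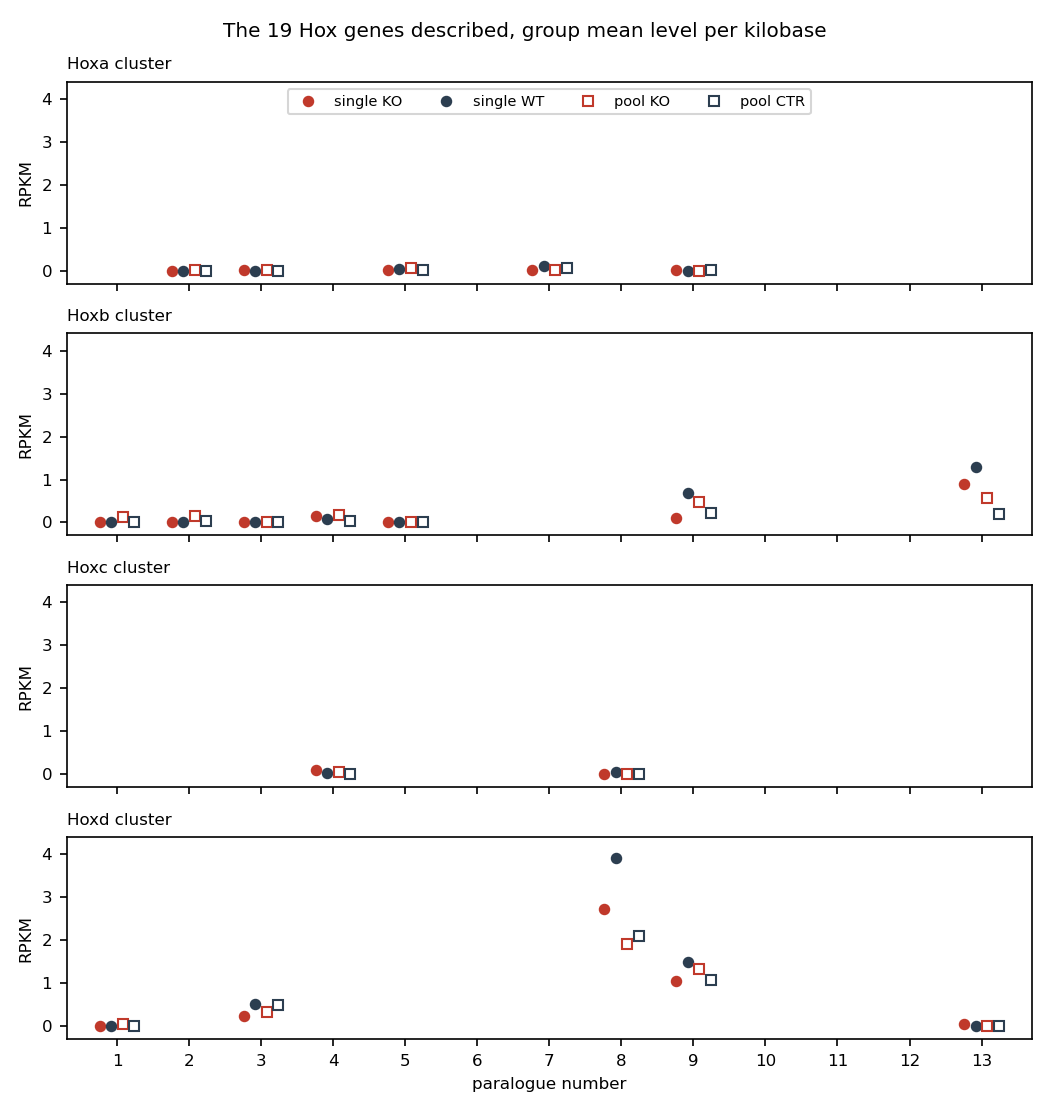
Mean level of the 19 Hox genes among the 57 in RPKM (vertical axis) by paralogue number (horizontal axis), 1 panel per cluster. Filled circles are single embryos and open squares pools, knockouts in red and controls in dark blue. Hoxd8 stands above the other 18 Hox genes plotted in all 4 groups, and Hoxc4, Hoxc8 and the 5 Hoxa genes lie near 0.

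Of the genes tested, Foxa1 had the highest log2 change in single embryos and Foxc2 the smallest p in pools, both forkhead genes. Foxa1, a pioneer factor of endodermal organs, was the only gene of the 20 tested in both sets whose knockouts lay above controls without overlap in both (5.0%, where 2.41% of all genes did so). It had 2.89, 0.802 and 0.609 CPM in knockout embryos, against 0.539, 0.399 and 0 CPM in wild-type embryos. In pools it had 2.05 and 3.15 CPM in knockouts, against 1.35 and 1.98 CPM in controls. The log2 changes were 2.28 (SE 1.40, 95% interval -0.81 to 5.37) and 0.54 (SE 0.40, -0.35 to 1.43), and neither passed (edgeR adjusted p = 0.369 and 0.864). In single embryos Foxa1 was the only one of the 21 that was higher without overlap (4.76%, against 12.6% of all genes). In pools 7 of the 24 were (29.2%, against 24.3% of all genes), namely Foxa1, Foxc2, Hoxb2, Hoxb4, Hoxb9, Hoxb13 and Meis1, and 0 were lower without overlap, where 11.1% of all genes were.

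Foxc2, a factor of mesoderm and vessels, had 1.26 and 2.83 CPM in knockout pools, against 0.606 and 0.548 CPM in control pools. In single embryos it had 3.44, 1.98 and 0.609 CPM in knockouts, against 1.96, 0.970 and 0 CPM in wild types. The pools did not overlap and the embryos did. The log2 change in pools was 1.71 (SE 0.53, interval 0.54 to 2.88; edgeR adjusted p = 0.585), and in single embryos 1.12 (SE 1.34; adjusted p = 0.677). Without knockout pool 1 the pooled value was 2.13 with an edgeR adjusted p of 0.0146, where 2.21% of all genes passed, a fit in which the lone knockout pool is assumed to vary as the controls do. Its relative Foxc1 had 2.55, 5.72 and 2.32 CPM in knockout embryos, against 2.97, 0.342 and 2.01 CPM in wild-type embryos. It had 0.923 and 2.98 CPM in knockout pools, against 1.86 and 1.60 CPM in control pools, and both sets overlapped (log2 1.0, SE 0.89, and 0.04, SE 0.52; edgeR adjusted p = 0.558 and 0.997). Foxd3, which serves pluripotent cells and the neural crest, had 0.611, 0.214 and 0.830 CPM in knockout embryos, against 2.36, 0.570 and 3.22 CPM in wild-type embryos. It had 0.0602 and 1.05 CPM in knockout pools, against 0.140 and 0.506 CPM in control pools, and both sets overlapped (-1.82, SE 1.11, and 0.63, SE 1.11; edgeR adjusted p = 0.361 and 0.955).

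**Figure D4:**
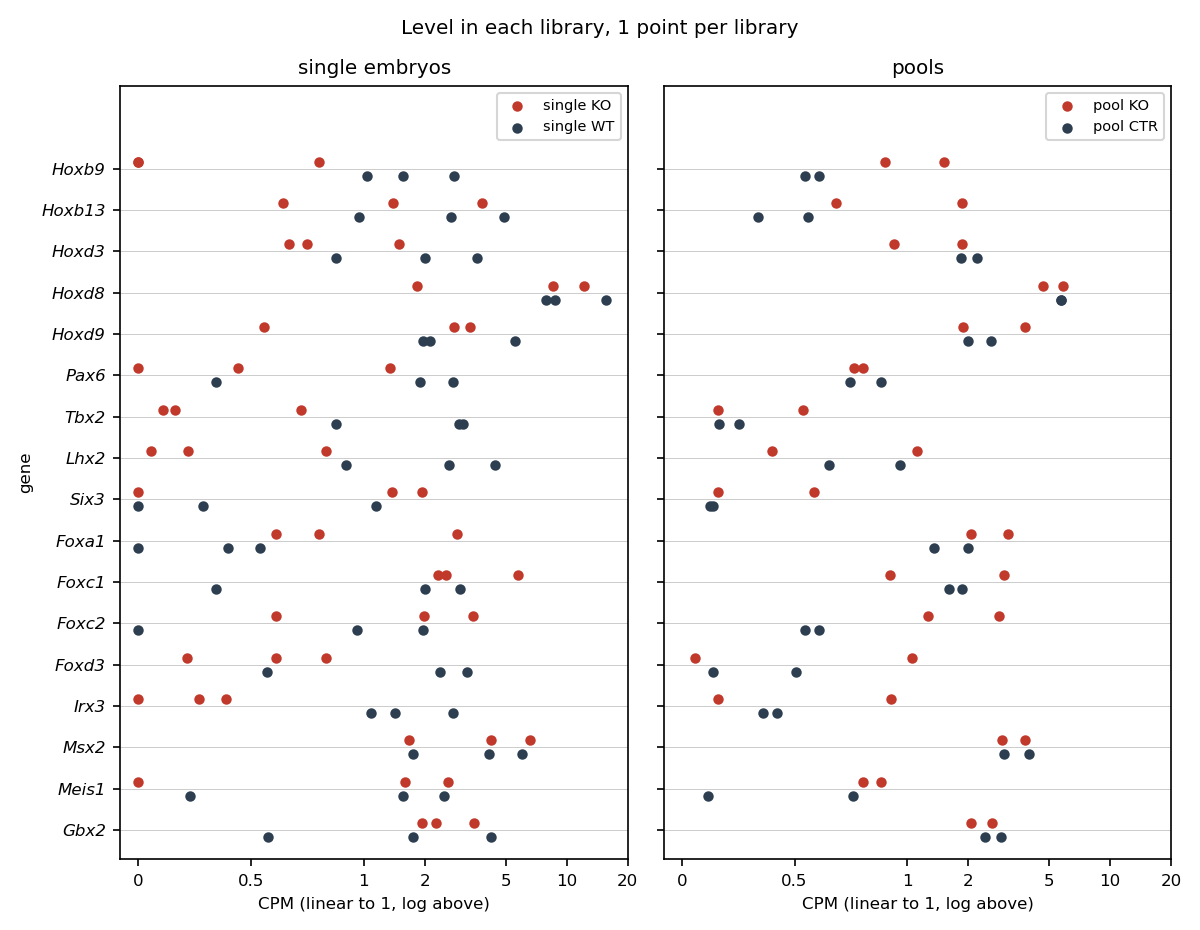
Level in CPM of 17 of the 19 genes that averaged at least 1 CPM in a group (Tbx3 and Tbx20 left out), with 1 point per library, knockouts in red above controls in dark blue. The axis is linear to 1 CPM and logarithmic above. Tbx2, Lhx2, Irx3 and Hoxb9 do not overlap in single embryos, with knockouts lower, by a narrow margin for Tbx2, Lhx2 and Hoxb9. Foxc2, Foxa1, Hoxb13, Hoxb9, Meis1 and Six3 do not overlap in pools, with knockouts higher, nor does Foxa1 in single embryos.

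The remaining genes that averaged at least 1 CPM overlapped between the genotypes in single embryos. Msx2, a homeobox gene of skull and limb, had 4.22, 6.58 and 1.66 CPM in knockout embryos, against 1.75, 5.99 and 4.14 CPM in wild-type embryos. The levels in pools were 3.81 and 2.93 CPM in knockouts, against 3.01 and 3.96 CPM in controls (log2 0.09, SE 0.72, and -0.12, SE 0.34). The genotypes overlapped over nearly their whole range. Gbx2, which marks the border of midbrain and hindbrain and also acts in embryonic stem cells, had 1.94, 3.48 and 2.27 CPM in knockout embryos, against 1.75, 4.22 and 0.575 CPM in wild-type embryos. It had 2.07 and 2.61 CPM in knockout pools, against 2.91 and 2.42 CPM in control pools (0.28, SE 0.87, and -0.29, SE 0.36). Its knockouts lay within the range of the wild-type embryos, and 43.5% of its exon bases overlap the transcript D130058E05Rik on the opposite strand, so its values are uncertain. Pax6, a regulator of eye development, had 0, 1.34 and 0.443 CPM in knockout embryos, against 1.89, 0.342 and 2.76 CPM in wild-type embryos. It had 0.762 and 0.805 CPM in knockout pools, against 0.746 and 0.885 CPM in control pools, with the knockout pools inside the control range (-1.52, SE 1.40, and -0.14, SE 0.56). Meis1, which encodes a Hox cofactor, had 0, 1.60 and 2.60 CPM in knockout embryos, against 2.49, 0.228 and 1.55 CPM in wild-type embryos. It had 0.882 and 0.805 CPM in knockout pools, against 0.117 and 0.759 CPM in control pools (-0.01, SE 1.41, and 0.87, SE 0.81). Its pools did not overlap, by a narrow margin. Six3, a forebrain and eye gene, had 0, 1.93 and 1.38 CPM in knockout embryos, against 1.15, 0.285 and 0 CPM in wild-type embryos (1.22, SE 1.67). It had 0.160 and 0.585 CPM in knockout pools, against 0.140 and 0.126 CPM in control pools, with too few reads there to be tested. On the opposite strand, Six3os1 overlaps 1.95% of the exon bases of Six3. It had 4, 1 and 2 reads in knockout embryos, against 32, 0 and 2 in wild-type embryos, and reads of the overlap cannot be told apart. For these 5 genes the edgeR adjusted p ran from 0.573 (Pax6) to 0.998 (Meis1) in single embryos. Knockout embryo 1 had 0 reads of Pax6, Meis1, Six3, Irx3 and Hoxb9 alike.

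**Figure D5:**
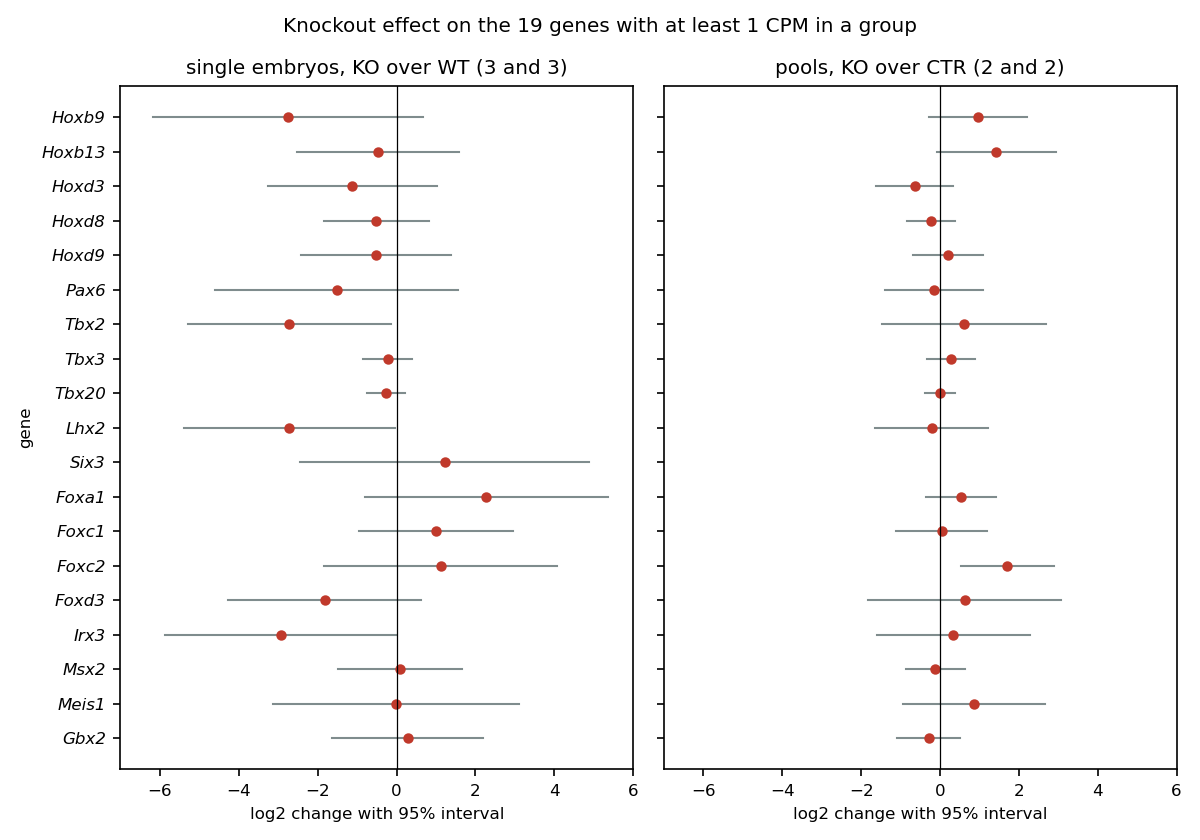
Log2 change of knockout over control (horizontal axis, points with 95% interval) for the 19 genes that averaged at least 1 CPM in a group, with single embryos on the left and pools on the right. Only the intervals of Tbx2, Lhx2 and Irx3 in single embryos and of Foxc2 in pools leave out 0 before adjustment, and Six3 was not tested in pools.

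Another 6 genes reached 1 CPM in some library but not as the mean of a group. They were Hoxa7, Pax3 and Pax9 (neural crest and pharyngeal factors), Irx2, Meis2 and the heart and motor neuron gene Isl1. Their highest value was that of knockout embryo 3 for Irx2 (1.77 CPM), Meis2 (1.66 CPM), Isl1 (1.5 CPM) and Pax9 (1.12 CPM), that of knockout embryo 4 for Pax3 (1.38 CPM) and that of wild-type embryo 1 for Hoxa7 (1.01 CPM). The same genes had 0 to 0.888 CPM in knockout embryo 1. Pax9 had 0.0555, 1.12 and 0.166 CPM in knockout embryos, against 0.135, 0 and 0.0575 CPM in wild-type embryos, and 0.160 and 0.390 CPM in knockout pools, against 0.0466 and 0 CPM in control pools. On the opposite strand, Slc25a21 overlaps 3.74% of the exon bases of Pax9. It had 37, 120 and 102 reads in knockout embryos, against 33, 93 and 5 in wild-type embryos, and reads of the overlap cannot be told apart. Of the 32 genes under 1 CPM everywhere, 19 had at least 3 reads in at least 1 library. In 8 of these 19 (42.1%) all such libraries were knockouts (Hoxb1, Hoxd1, Hoxd13, Pax7, Nkx2-5, Sox18, Irx1 and Dlx2), where 28.4% of all 7204 genes that are as weakly read were like this. In 2 of the 19 (10.5%, against 17% of such genes) all were controls (Hoxc8 and Lhx1). The 5 knockout libraries held 145648558 reads together, and the 5 control libraries 140119276. Without knockout pool 2 the first count was 5 of 16 genes (against 21.7%). Hoxb1, a hindbrain Hox gene, was the only one of the 8 with at least 10 reads in both knockout pools, with 10 and 16 reads, against 0 and 0 in control pools and 0 in all 6 single embryos. Nkx2-5, an early heart gene, had 10 reads in knockout pool 2 and 0 in the other 9 libraries. Sox18, a vessel gene, had 8 and 2 reads in knockout pools, against 0 and 0 in control pools. Hoxd1 had its 8 reads in knockout pool 1, and Irx1 its 4 in knockout pool 2. The other 9 of the 19, Hoxa5, Hoxa9, Hoxb2, Hoxb4, Hoxc4, Six2, Nkx2-2, Sox9 and Dlx1, had 3 reads or more in both genotypes. Sox9, a cartilage and testis gene and the most read of them, had 0.441 and 0.732 CPM in knockout pools, against 0.559 and 0.885 CPM in control pools, and overlapped (log2 -0.40, SE 0.65, edgeR adjusted p = 0.950). At counts of a few reads a single library decides the class, and the 8 genes were too weakly read to be tested. All their counts in pools were even numbers, which were frequent in the pools over all genes. The class was not counted again with pool counts divided by 2, so its size is uncertain.

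The other 133 genes of the list of developmental transcription factors, kept for comparison, had 30 tested in single embryos and 48 in pools. Of these, 0 passed 5% in either set (edgeR), where 4.37% and 0.0% of all genes did. At an unadjusted p under 0.05 by edgeR, 1 of the 30 was higher in knockout embryos, where 10.4% of all genes were. In pools 4 of the 48 were higher in knockouts, where 4.26% of all genes were, and 0 were lower in either set. The median log2 changes of these other genes were 0.16 and 0.35, against -0.26 and 0.25 for the 57. The most abundant were Gata6, Cdx2, Hand1, Eomes and Otx2, of which Gata6, Cdx2 and Eomes are also on the marker lists above. Gata6, the endoderm factor, had 272, 411 and 199 CPM in knockout embryos, against 412, 446 and 382 CPM in wild-type embryos. In pools Gata6 had 278 and 352 CPM in knockouts, against 224 and 292 CPM in controls. Otx2, a head organizer factor, averaged 20.3 ± 5.02 CPM in knockout pools and 9.78 ± 0.368 CPM in control pools (SD, n = 2 each; log2 0.95, SE 0.22, edgeR adjusted p = 0.399). Its single embryos went the other way, with 6.83, 8.18 and 15.8 CPM in knockouts, against 16.9, 16.9 and 10.9 CPM in wild types (log2 -0.48, SE 0.43, edgeR adjusted p = 0.562). Among the 12 PRC2 subunit and cofactor genes tested, Jarid2 alone passed 5% in single embryos, and of 19 PRC1 subunit genes 0 did in either set (edgeR). At an unadjusted p under 0.05 by edgeR, 2 of the 12 were higher in knockout embryos, Eed and Rbbp7 (log2 0.66 and 0.91). Of the 19 PRC1 genes 1 was higher there, where 10.4% of all genes were. In pools 1 of the 19 was higher at that threshold, where 4.26% of all genes were.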

How the data were processed

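The deposited values are raw counts of reads per gene in 10 libraries, all whole numbers. Per the submitters' processing notes, the genome build was mm10 and the tools were RSEM 1.3.1, STAR 2.7.6a and fastp 0.21.0, with no role stated. No source used here gives the annotation, the use of strand or the handling of reads with several matches. SMART-Seq v4 complementary DNA was tagmented with Nextera XT and read as single ends, per the labels' protocols. Reads carry no molecular identifiers, so floors and counting limits cover counting error only.

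Counts were tested with edgeR 4.0.16 (R 4.3.3): filterByExpr by group, TMM scaling, the quasi-likelihood F test, and Benjamini-Hochberg adjustment over all genes tested at 5%, two-sided. Each set was fitted alone, and the difference between sets in a model of all 10 libraries that also held set. Standard errors and 95% intervals come from the log2 change and its F value. The script was tested on simulated data. CPM divides by the total counts of a library, and RPKM further by exon length from GENCODE M21, whose exons also gave overlaps. Promoters come from RefSeq (GRCm38.p6), with no sequence in the table for Hoxb2, Hoxb3, Hoxb5, Hoxb9, Hoxb13, Hoxc8, Pax3, Tbx2, Tbx3, Tbx5, Lhx5, Sox9, Sox18, Foxc2, Irx1 and Irx5. A gene counted as detected at 3 reads.

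The genes, the comparison lists and the rules were chosen with earlier results of these data known. Values by library are given for genes with a mean of at least 1 CPM in a group or an unadjusted p under 0.05, and other genes described by library were chosen after their values were seen. Replicates were no copies of each other (chi-square 49.4 to 88.4 per gene). Alternatives were DESeq2 1.42.0, limma-voom (limma 3.58.1), other scalings and filters, a fit over all libraries, the replicate number as a block, each library left out, and, chosen after seeing the data, pool counts divided by 2 and a leave-out of each library for the weakly read genes.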

Additional observations from a re-analysis of the deposited data

Results flagged for a closer look

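Hoxb9 drew attention because every knockout library lay on one side of its controls in single embryos and on the other side in pools: it had 0, 0.802 and 0 CPM in knockout embryos, against 1.55, 2.79 and 1.04 CPM in wild-type embryos, and 0.902 and 1.51 CPM in knockout pools, against 0.606 and 0.548 CPM in control pools. The knockout effect in single embryos minus that in pools was -3.66 on the log2 scale (SE 2.02), which did not pass the test of the difference (edgeR adjusted p = 0.428). Over the 17 alternatives that gave one (DESeq2 did not), that adjusted p ran from 0.0753 to 0.914. Without knockout embryo 3, which held all 15 reads of the knockout embryos, the difference was -9.55, a fitted value that depends on the prior count. Of the genes tested in both sets, 2.52% were likewise lower in knockout embryos and higher in knockout pools without overlap. With 3 embryos or 2 pools a group, no group was large enough to be searched for outlying libraries.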

How the results depend on the processing

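The count of 0 genes past 5% among the 57 held in single embryos and for the difference between sets under all alternatives run, where DESeq2 gave an adjusted p to only 4 of the 21 genes in single embryos and 2 of the 24 for the difference. In pools it ran from 0 to 1 with a library left out, the 1 being Foxc2 without knockout pool 1. The number detected was 44 with 3 reads and 25 at 1 CPM in a library. With 6 reads asked of a pool or 3 of a single embryo, a rule chosen after seeing the data, it was 43. The weakly read genes with 3 reads in knockout libraries only numbered 8, and 5 to 10 with a library left out. The summed level of knockouts minus controls was -58.0 CPM in single embryos, and -112 to -14.1 CPM with an embryo left out. In pools it was 48.8 CPM, and -5.77 to 103 CPM with a pool left out. The calls over all genes moved more: 605 in single embryos became 1 without wild-type embryo 3 or knockout embryo 4, 41 without wild-type embryo 1, 66 without knockout embryo 1, 1316 without knockout embryo 3 and 1945 by DESeq2, and in pools the 0 became 25 to 379 with a pool left out and 70 by DESeq2.

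Of 576 log2 changes of the 19 genes under alternatives, 537 kept direction and did not cross the threshold (22 of the 42 DESeq2 values had no adjusted p), 38 turned direction and 1 came to pass; the cause was not tested. With limma-voom in pools, Foxc1 was at -0.17, Foxd3 at -0.25 and Irx3 at -0.13, and the difference between sets of Foxc2 at 0.58. Tbx20 in pools was at 0.02 with the filter of 1 CPM and at 0.04 with upper quartile scaling. Meis1 in single embryos was at 0.03 by DESeq2 and by its size factors, at 0.02 in a fit of all 10 libraries and at 0.04 with upper quartile scaling. With a library left out, values in single embryos ran from -1.40 to 0.15 (Hoxb13), -0.85 to 0.13 (Hoxd9), -0.51 to 0.06 (Tbx3), -0.31 to 0.49 (Msx2), -0.89 to 0.64 (Meis1) and -0.17 to 1.16 (Gbx2). In pools they ran from -0.30 to 0.58 (Hoxd9), -0.39 to 1.20 (Tbx2), -0.15 to 0.67 (Tbx3), -0.11 to 0.10 (Tbx20), -1.03 to 0.31 (Lhx2), -0.93 to 0.62 (Foxc1), -2.39 to 1.78 (Foxd3), -1.28 to 1.09 (Irx3) and -0.40 to 0.11 (Msx2), and the difference of Foxc2 from -1.26 to 0.46.

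With the replicate block, 0 of the 57 genes passed in single embryos, in pools or for the difference, Tbx3 in single embryos was at 0.04, Foxc1 in pools at -0.12 and the difference of Foxc2 at 1.21. Over all genes the block gave 187 calls in single embryos and 39 in pools. Same-numbered embryos did not deviate together (r = -0.01 and -0.0653 across genes), and the 2 pairs of pools (r = 0.274) are too few to show pairing, so the numbers were not taken to pair the libraries. Depth and the number of libraries limit the values: most of the 57 genes lay under 1 CPM, where 1 library can decide a value. Even counts were frequent in the pools. Dividing pool counts by 2 changed no call of the tests, and the class of weakly read genes was not counted again that way.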
